A study of Mus musculus with 24 samples.

Results

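The Fanconi anaemia and translesion synthesis genes are a list of 31 genes for DNA crosslink repair and lesion bypass, chosen by name. All 31 were found among the 55414 genes of the files by their mouse symbols, and all 31 passed the filter on low counts in every fit. The core complex is represented by 11 members, the step that ubiquitinates the FANCD2-FANCI pair by 3, its reversal by 2, the nucleases and their scaffold by 5, the translesion polymerases by 5, the PCNA ligases by 3, and fork remodelling and repriming by 2.

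The values come from 24 RNA-seq libraries of C57BL6/J mouse marrow, WT or Srcap mutant, with 2 libraries in each of 12 groups. SRCAP is a chromatin remodelling ATPase that loads H2A.Z, a variant histone, onto nucleosomes. Hematopoietic stem and progenitor cells (HSPCs) were sampled untreated, at 12 hours after intraperitoneal doxorubicin, at 2 weeks from a transplant, and at 20 weeks from a competitive transplant, where the series text speaks of the donor's test cells. B cells and cells labelled T cells came from 2 weeks after transplantation. The file headers call the mutants het in the untreated, doxorubicin and 20-week HSPCs and Mut in the 2-week libraries, and give no further description of the allele. Doxorubicin is a topoisomerase poison that breaks DNA.

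An interstrand crosslink joins both strands of the helix and blocks the replication fork. In the Fanconi anaemia pathway, FANCM and FAAP24 bring a core complex to the stalled fork, where the ligase FANCL and its partner UBE2T attach ubiquitin to FANCD2 and FANCI, and nucleases held by SLX4 then unhook the crosslink. Polymerases that tolerate damaged templates, led to the site by PCNA that RAD18 has ubiquitinated, copy past what is left. Inherited loss of this pathway causes bone marrow failure, and hematopoietic stem cells are among the cells that need it.

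Total counts per library ran from 26369992 to 78432483. Levels are given as scaled CPM, CPM (counts relative to the library total) after correction of that total by a TMM factor over all 24 libraries. Srcap itself was called in none of the genotype comparisons, with 7.39 to 12.4 scaled CPM in WT HSPCs outside the 20-week group and 9.25 to 11.6 in the mutants, and 2.82 in mutant replicate 1 at 20 weeks against 6.09 to 8.92 in the other 3 libraries of that time. The libraries labelled T cells held 0.144 to 2.31 scaled CPM of Cd3e, the T cell receptor subunit that defines T cells, 11 to 13.9 of Cd3d, and a sum over 8 T cell markers of 35 to 46.9, below the 47.1 to 58.5 of the 2-week HSPCs. Their sum over 8 neutrophil markers was 193180 to 238009, or 13.1% to 15% of all counts. They are therefore called T labelled here. The 4 B cell libraries summed to 6758 to 8999 scaled CPM over 8 B cell markers, against 326 to 969 in the HSPCs of that time. WT untreated replicate 1 summed to 19596 over the neutrophil markers, while the other 3 untreated libraries summed to 119 to 344. Whether libraries of a group came from separate animals is not stated, so p-values measure the spread between these samples, which may be technical.

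Usp1, which removes ubiquitin from FANCD2 and PCNA, was the most abundant member per length of exonic sequence in every condition. It averaged 53 ± 4.31 scaled CPM per kb (SD, n = 4) in untreated HSPCs and 31.3 ± 1.49 in T labelled libraries. The next member in untreated HSPCs was Faap20, a ubiquitin-binding subunit of the core complex, at 12.1 ± 1.35. The PCNA ligase Hltf followed at 11.4 ± 0.52, a mean within the SD of Faap20. Fan1, a crosslink nuclease, was the lowest in every condition, with 1.77 ± 0.232 in untreated HSPCs and 0.792 ± 0.173 in T labelled libraries. In B cells the order differed, with the polymerase Rev1 at 17.5 ± 1.44 and the nuclease scaffold Slx4 at 15.3 ± 1.82 following Usp1 at 39 ± 3.07. The map of members by library shows these levels relative to each gene's mean.

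**Figure D1:**
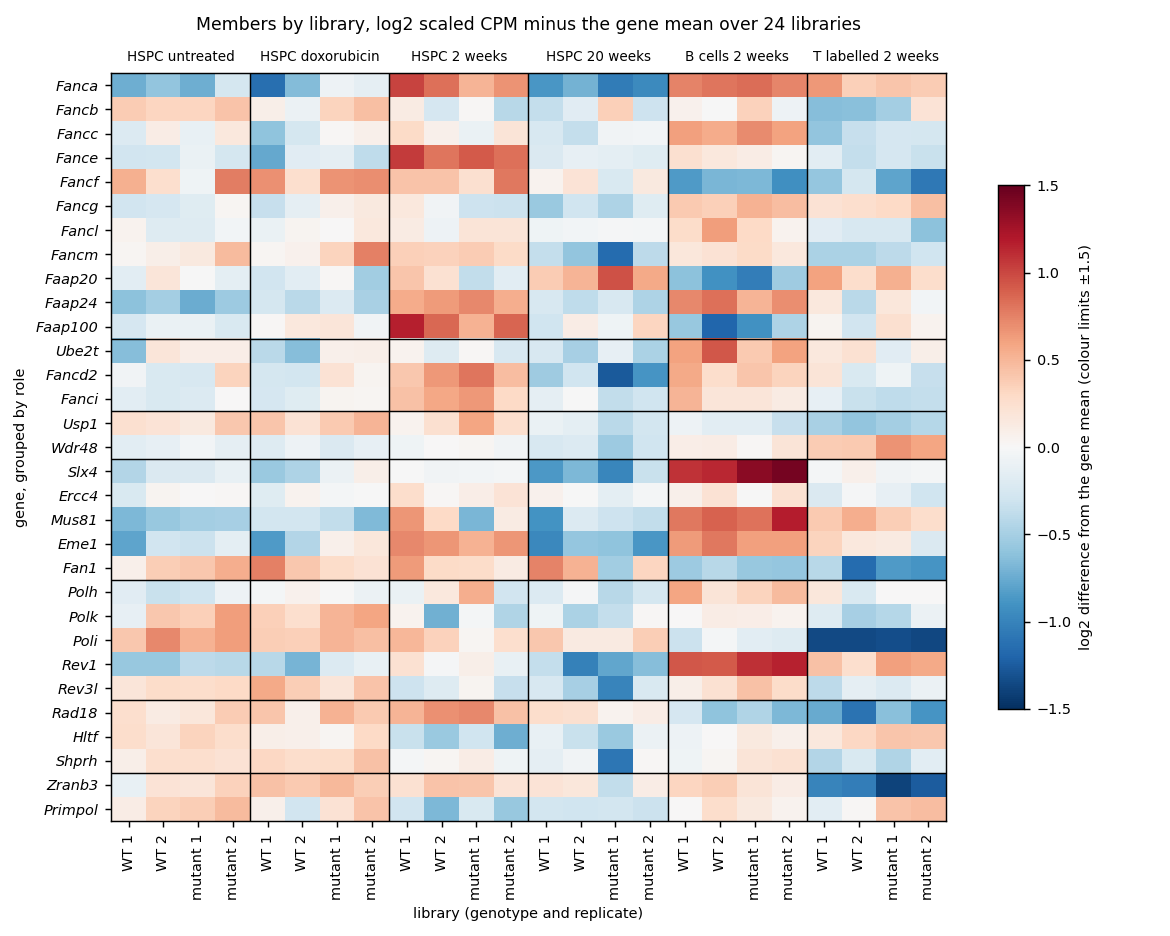
Each row is a member and each column a library, and colour gives log2 scaled CPM minus the gene's mean over the 24 libraries (colour limits at 1.5 either way), with black lines between conditions and between roles. Fanca is high in the 2-week HSPC, B cell and T labelled libraries (48.1 to 76.4 scaled CPM) and low in the other HSPCs (17.2 to 35.7), and Slx4 is highest in the 4 B cell libraries (104 to 132).

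Of 9 members called in all 3 comparisons of cell labels, 7 had a window, and the start regions of the 6 of these with the largest absolute changes, summed over the comparisons, are shown, which leaves out Hltf. Faap100, Rad18 and Fance were lower in both B cells and T labelled libraries than in HSPCs, and Rev1 was higher in both. Faap20 was lower in B cells and higher in T labelled libraries, and Fancc the reverse. The windows, taken from RefSeq on GRCm38.p6, run from 250 bases before to 50 bases after the annotated start, and lie in the order shown at chr11:120378697-120378996, chr6:112696621-112696920, chr17:28313280-28313579, chr1:38129617-38129916, chr4:155249716-155250015 and chr13:63431696-63431995. Fance and Faap20 are on the plus strand and the other 4 on the minus strand. Rad18 has a second start nearby, not shown. Capitals mark the letters searched that were found, GGGCGG (GC box) and CCAAT, on either strand.
Faap100: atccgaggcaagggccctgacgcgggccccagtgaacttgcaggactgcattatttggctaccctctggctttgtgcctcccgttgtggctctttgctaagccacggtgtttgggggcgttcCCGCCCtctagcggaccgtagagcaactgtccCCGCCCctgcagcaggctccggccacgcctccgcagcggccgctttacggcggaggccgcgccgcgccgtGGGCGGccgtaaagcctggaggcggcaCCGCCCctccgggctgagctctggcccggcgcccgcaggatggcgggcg
Rad18: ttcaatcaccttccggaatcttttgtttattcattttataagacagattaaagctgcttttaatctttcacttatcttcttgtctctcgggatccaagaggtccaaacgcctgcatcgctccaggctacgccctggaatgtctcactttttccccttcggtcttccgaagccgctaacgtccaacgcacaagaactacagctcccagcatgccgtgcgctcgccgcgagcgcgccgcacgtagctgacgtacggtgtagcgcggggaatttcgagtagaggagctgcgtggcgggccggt
Fance: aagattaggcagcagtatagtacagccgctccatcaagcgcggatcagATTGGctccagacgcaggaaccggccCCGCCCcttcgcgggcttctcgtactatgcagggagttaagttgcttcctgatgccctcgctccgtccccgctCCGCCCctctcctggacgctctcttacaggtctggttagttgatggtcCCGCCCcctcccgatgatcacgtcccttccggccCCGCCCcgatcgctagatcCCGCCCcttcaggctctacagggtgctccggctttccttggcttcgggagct
Rev1: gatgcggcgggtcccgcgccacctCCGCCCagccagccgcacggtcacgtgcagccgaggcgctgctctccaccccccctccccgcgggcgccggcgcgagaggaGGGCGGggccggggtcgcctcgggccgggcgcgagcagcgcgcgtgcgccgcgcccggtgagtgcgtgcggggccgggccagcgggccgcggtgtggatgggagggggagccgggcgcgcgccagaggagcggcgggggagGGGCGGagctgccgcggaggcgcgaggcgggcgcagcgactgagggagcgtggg
Faap20: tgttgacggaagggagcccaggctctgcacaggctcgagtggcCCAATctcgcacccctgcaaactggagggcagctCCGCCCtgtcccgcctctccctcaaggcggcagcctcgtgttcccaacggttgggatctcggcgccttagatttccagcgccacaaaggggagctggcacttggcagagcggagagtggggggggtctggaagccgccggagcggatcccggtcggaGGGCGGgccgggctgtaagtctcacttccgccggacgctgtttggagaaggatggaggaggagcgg
Fancc: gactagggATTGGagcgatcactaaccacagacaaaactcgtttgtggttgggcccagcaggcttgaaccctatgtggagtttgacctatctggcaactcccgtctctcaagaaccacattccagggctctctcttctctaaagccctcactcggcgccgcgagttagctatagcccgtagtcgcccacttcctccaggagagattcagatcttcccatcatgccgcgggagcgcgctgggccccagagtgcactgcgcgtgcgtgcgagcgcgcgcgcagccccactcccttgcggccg

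The window of Faap100 held 4 GC boxes and that of Rev1 held 3. That of Fance held 5 GC boxes and 1 CCAAT, that of Faap20 held 2 GC boxes and 1 CCAAT, that of Fancc held 1 CCAAT, and that of Rad18 held none of the letters searched. RefSeq promoters were found for 27 of the 31 members, in 31 windows. On either strand, CCAAT occurred in 48.4% of these windows and in 37.4% of all 32851, the GC box in 51.6% and 35.7%, TTTGAA (the cell cycle element CHR) in 19.4% and 17.9%, GCGCATGC (the site of NRF1) in 9.68% and 2.71%, and any of TTTCCCGC, TTTGGCGC, TTTGCCGC and TTTCGCGC (E2F sites) in 3.23% and 2.26%. The NRF1 letters were in the windows of Fanci, Fancm and Polh, and the E2F letters in that of Fancg. Matches of different letters could overlap. The GC box was added to the search after the counts for the other letters were known. The median GC content was 59% in the member windows and 52.7% in all, and windows of 1 gene can overlap, so these shares are descriptions.

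The first comparison asked how the pathway differs between HSPCs and B cells at 2 weeks, in libraries that share time and header directory. B cells carried more of the nuclease scaffold Slx4 and of the polymerase Rev1 than HSPCs, and less of Faap100 and Fancf, both core complex subunits, and of Rad18, the ligase that starts lesion bypass. Of the 31 members 9 were higher and 8 lower in B cells (edgeR quasi-likelihood test, called at a Benjamini-Hochberg adjusted p under 0.05). Of the 19018 genes of the fit 28.3% were higher and 25.5% lower, 53.9% in either direction, so the members were called about as often as any gene. The median log2 change was 0.08 over the members and 0.06 over all genes.

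Slx4, which holds the nucleases that cut at a crosslink, gave 104, 107, 125 and 132 scaled CPM in B cells. The HSPCs of that time gave 47.1 to 48.6 and the T labelled libraries 47.1 to 51.6. Slx4 (ENSMUSG00000039738) lies on the minus strand at chr16:3796969-3821634 of GRCm39. The 4 B cell libraries lay above all 20 others, and the log2 change from HSPCs was 1.28 ± 0.08 (SE, adjusted p = 1.27e-08). Rev1, the scaffold polymerase of lesion bypass, rose by 0.98 ± 0.09 (adjusted p = 5.2e-07), from 48.8 to 61.6 in HSPCs to 99.8 to 117 in B cells. Its partner Rev3l, the catalytic subunit of polymerase zeta, rose from 61 ± 7.79 (SD, n = 4) to 83.7 ± 8.43. Mus81, a nuclease of stalled forks, was 29.4 to 38.5 in B cells and 10.6 to 26.9 in HSPCs, a log2 change of 0.80 ± 0.17. The E2 enzyme Ube2t (0.72), the core subunits Fancg (0.57) and Fancc (0.51), the primase-polymerase Primpol (0.55) and Hltf (0.52) completed the 9.

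Among the members that fell, Faap100 measured 36.8, 29.9, 23.6 and 30.1 scaled CPM in HSPCs and 11.1, 7.19, 8.75 and 11.9 in B cells, a log2 change of -1.62 ± 0.19 (adjusted p = 4.64e-06). Each B cell library lay below each HSPC library. Rad18 fell from 51.9 to 63 in HSPCs to 23.9 to 32 in B cells (log2 change -1.08 ± 0.13, adjusted p = 8.55e-06). Fancf fell from 6.29 ± 1.05 (SD, n = 4) in HSPCs to 2.62 ± 0.22 in B cells, and Fan1 from 10.6 ± 1.65 to 5.81 ± 0.302. Faap20 (-0.78), Fance (-0.76), Usp1 (-0.47) and the polymerase Poli (-0.45) were also lower. Poli lost its call without WT HSPC replicate 1 (adjusted p = 0.0527) or WT B cell replicate 1 (adjusted p = 0.0519).

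Of 34 other genes of the pathway (among them Brca1, Brca2, Blm and its partners, and checkpoint and aldehyde genes) 7 were higher and 14 lower in B cells. Among those called were the RAD18 partner Ube2a at 0.86, the crosslink nuclease Dclre1a at -1.82 and the checkpoint kinase Chek1 at -0.93. Of 16 S phase genes 1 was higher and 13 lower, and of 16 G2 and M phase genes 8 were higher and none lower. The summed S phase level was 2487 to 3436 in B cells and 4709 to 5632 in HSPCs, and the summed G2 and M phase level 4680 to 5929 and 3194 to 5240. Of 8 erythroid markers 6 were higher in B cells and 2 lower, with sums of 5842 to 15617 against 781 to 1316 scaled CPM. The neutrophil markers summed to 3265 to 11765 scaled CPM in B cells and 1161 to 3475 in HSPCs. The part of these lists in the members' changes was not tested. In bulk RNA fewer cells of a type and less RNA per cell cannot be told apart.

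T labelled libraries carried less of most members than the 2-week HSPCs. In all 18 of the 31 fell and 6 rose, against 29.3% lower and 32.6% higher of all genes, 61.9% in either direction, and the median log2 change was -0.31 over the members and 0.03 over all genes. The largest decreases were in Poli, a polymerase that inserts opposite damaged bases, in Zranb3, a remodeller of stalled forks, and in Rad18. Poli measured 10.2, 10.2, 10.4 and 10.1 scaled CPM in the T labelled libraries and 26.6 to 36.8 in HSPCs (log2 change -1.62 ± 0.13, adjusted p = 7.67e-08). Zranb3 measured 9.06 to 11.9 and 27.3 to 31.8 (-1.47 ± 0.13, adjusted p = 1.2e-07). Rad18 measured 17.7 to 24.6 and 51.9 to 63 (-1.42 ± 0.13). In all 3 the groups did not overlap.

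Core complex members made up 8 of the 18 that fell, among them Fance (-1.16), Fancf (-1.14), Faap100 (-0.83) and Fancm (-0.74). Fancd2 (-0.67) and Fanci (-0.78), which together form the clamp on DNA, and Usp1 (-0.78) also fell. Usp1's partner Wdr48 rose instead, from 91.3 to 97.4 in HSPCs to 124 to 153 (0.54 ± 0.08, adjusted p = 2.81e-05). Hltf (0.81), Primpol (0.63), Fancg (0.45), Rev1 (0.44) and Faap20 (0.41) were the others that rose. These 6 depended on the scaling: with library totals alone each had a negative log2 change, 29 members were called lower, none was called higher, and the median over all genes moved from 0.03 to -0.79. Faap20 also lost its call with DESeq2 (adjusted p = 0.0583), with RLE scaling (0.0555), with the compared groups alone (0.0645) and without any 1 of 5 of the 8 libraries. Of the 8 neutrophil markers 7 were called higher than in HSPCs, as were 6 of 6 monocyte and macrophage markers. Of the 8 erythroid markers 6 were higher and 2 lower, with sums of 4572 to 14044 against 781 to 1316 scaled CPM. Their part in the members' changes was not tested.

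Of the 34 other pathway genes 21 fell and 6 rose in T labelled libraries, with the checkpoint kinases Chek1 (-1.74) and Atr (-1.69) falling most and Aldh2, which clears aldehydes that crosslink DNA, rising most (2.17). Of the 16 S phase genes 14 fell and none rose, and of the G2 and M phase genes 5 fell and 3 rose.

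The 3 comparisons of cell labels share libraries, so their values stand side by side only. B cells exceeded T labelled libraries in 19 members and fell below them in 4, against 27% and 25.9% of all genes, 52.9% in either direction. The median log2 change was 0.40 over the members and 0.16 over all genes. Zranb3 (1.40), Slx4 (1.24), Poli (1.17) and Fancc (0.97) led the 19, and all 3 members of the ubiquitination step were among them. Faap20 (-1.19 ± 0.16), Faap100 (-0.79), Wdr48 (-0.41) and Hltf (-0.29) were lower in B cells. With library totals alone 28 members were higher and 1 lower, Wdr48 and Hltf changed sign to 0.30 and 0.42, and the median over all genes was 0.86. Hltf lost its call without any 1 of 7 of the 8 libraries. Faap20 measured 10.5 to 14.9 scaled CPM in B cells, 25.9 to 32.7 in T labelled libraries and 16.7 to 28.7 in HSPCs.

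**Figure D2:**
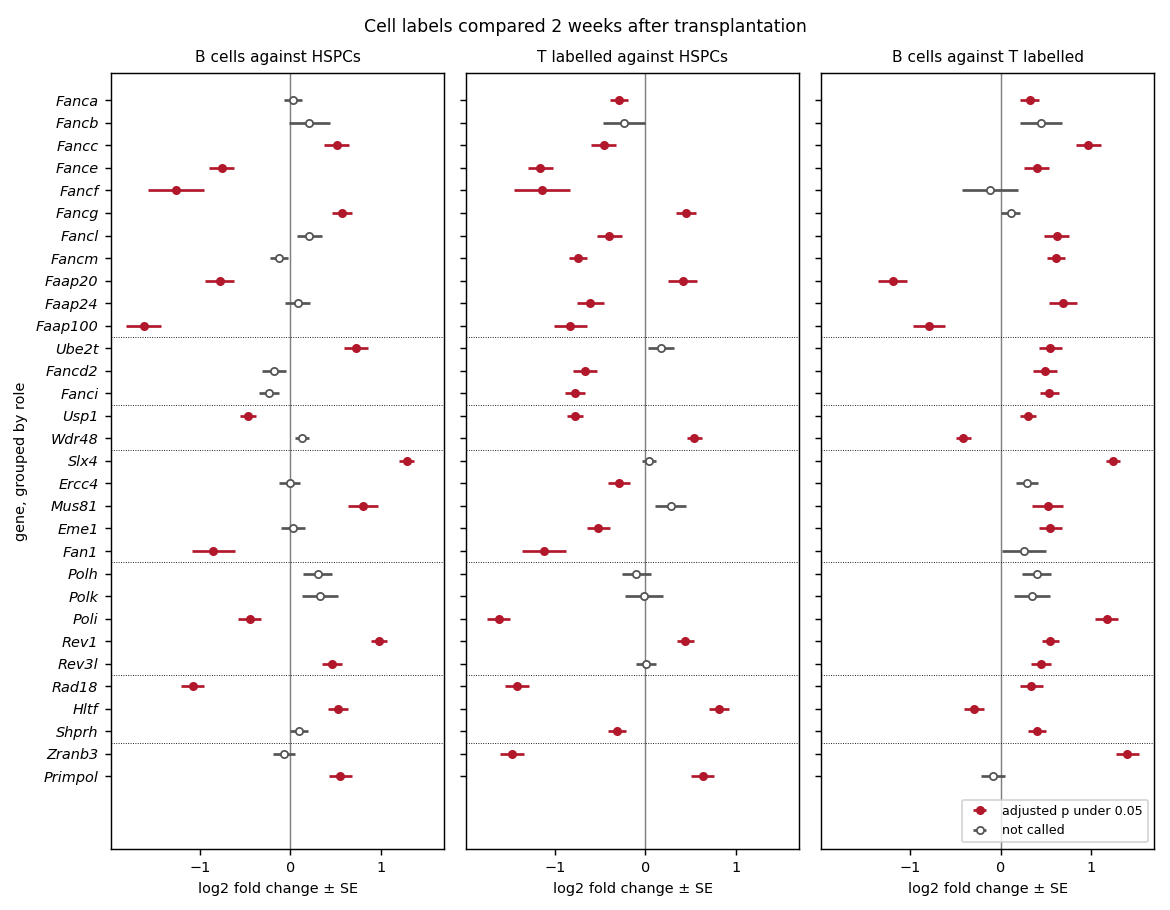
Points are log2 fold changes of the 31 members with SE bars, filled red where the adjusted p was under 0.05, in the 3 comparisons of cell labels at 2 weeks with 4 libraries on each side. Slx4 stands at 1.28 and 1.24 in B cells against HSPCs and T labelled libraries, and Poli, Zranb3 and Rad18 at -1.62 to -1.42 in T labelled libraries against HSPCs.

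The next comparison set HSPCs after transplantation against untreated HSPCs. At 2 weeks several genes of the crosslink pathway stood higher: Fanca, Faap24, Fance and Faap100 of the core complex, the nuclease subunit Eme1, and the FANCD2-FANCI pair. The other core complex members were not called. Genes of lesion bypass were mixed, with Rev1, Rad18 and Polh higher and Hltf, Primpol, Polk and Rev3l lower. Together 11 of the 31 members were higher and 4 lower. Of all 19522 genes 21.2% were higher and 24.9% lower, 46.1% in either direction. Without regard to direction, the members were thus called about as often as any gene. The median log2 change was 0.21 over the members and -0.14 over all genes.

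Fanca, a scaffold of the core complex, measured 22.7 and 25 scaled CPM in untreated WT HSPCs and 22.6 and 31.3 in untreated mutants. At 2 weeks it measured 76.4 and 66.7 in WT and 53.5 and 60 in mutants. Every 2-week HSPC library exceeded every untreated one, by a log2 change of 1.39 ± 0.13 (adjusted p = 1.31e-07). Faap24, the DNA-binding partner of FANCM, was 9.47 to 11.2 untreated and 23.1 to 26.1 at 2 weeks (1.28 ± 0.15). Fance, which joins the core complex to FANCD2, was 11.6 to 13.2 and 24.8 to 29.3 (1.19 ± 0.15). Eme1, the partner of MUS81, was 9.35 to 14.6 and 23.2 to 26.6 (1.07 ± 0.16). The groups did not overlap for any of these. FANCM itself did not pass the test, with Fancm at 35.3 ± 5.24 untreated and 39.1 ± 1.18 at 2 weeks, nor did the ligase Fancl or its partner Ube2t.

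Hltf, which extends the ubiquitin chain on PCNA, fell from 63.9 to 71.5 scaled CPM to 34.1 to 46 (-0.67 ± 0.12, adjusted p = 0.000168). Primpol, which restarts synthesis beyond a lesion, fell from 34 to 43.8 to 19.7 to 27 (-0.69 ± 0.13, adjusted p = 0.000227). The groups did not overlap for either. Polk fell by 0.53 and Rev3l by 0.39 on the log2 scale, and Polk lost its call without any 1 of 4 libraries and Rev3l without any 1 of 5. All 8 erythroid markers were higher at 2 weeks, with sums of 781 to 1316 scaled CPM against 26.3 to 204, and 6 of 8 stem and progenitor markers were lower, with sums of 1155 to 1513 against 2370 to 3024. Their part in the members' changes was not tested.

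At 20 weeks 1 member was higher and 8 were lower than in untreated HSPCs. Of all genes 13.1% were higher and 10.6% lower, 23.6% in either direction, and the median log2 change was -0.17 over the members and 0.02 over all genes. Fancm, the fork translocase, measured 31.5 to 43 scaled CPM untreated and 13.9 to 24.1 at 20 weeks (-0.75 ± 0.15, adjusted p = 0.00119). Rev3l measured 78.9 to 85.6 and 35.1 to 59.4 (-0.68 ± 0.14), and Fancd2 38.9 to 57.8 and 19.2 to 37.1 (-0.67 ± 0.13). Primpol (-0.58), Hltf (-0.49), Usp1 (-0.45), Shprh (-0.44) and Slx4 (-0.42) were the other 5. Faap20 rose from 19.3 to 24.4 to 28.2 to 41.7 (0.68 ± 0.15, adjusted p = 0.00259).

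Shprh, Rev3l and Fancm have the longest exonic sequence of the members, at 14066, 13293 and 10440 bases, and the 20-week mutant replicate 1 was the lowest library for each, at 27, 35.1 and 13.9 scaled CPM. Without it 7 members were lower and 1 higher, and the change of Shprh was -0.22 (adjusted p = 0.149). Shprh lost its call without any 1 of 7 of the 8 libraries, and without the eighth, the 20-week mutant replicate 2, its change was -0.74 (adjusted p = 6.11e-05). Slx4 lost its call without any 1 of 4 libraries. With library totals alone 22 members were lower and none higher, and the median over all genes was -0.33. All 5 plasma cell markers were higher at 20 weeks, with sums of 13606 to 23162 scaled CPM against 3287 to 6075 untreated, and their part in the members' changes was not tested. Without WT untreated replicate 1 11 members were higher and 4 lower at 2 weeks, and 1 higher and 8 lower at 20 weeks.

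Between 2 and 20 weeks 15 members were higher at 2 weeks and 1, Faap20, was lower, against 19% and 23% of all genes, 42% in either direction. The medians were 0.32 and -0.07, and with library totals alone 24 members were higher and none lower, with a median over all genes of 0.19. Fanca (1.68 ± 0.13), Eme1 (1.41 ± 0.16), Fancd2 (1.35 ± 0.14) and Fance (1.09 ± 0.15) led. Fancd2, which with FANCI clamps DNA once ubiquitinated, measured 60.4 to 79.9 at 2 weeks and 19.2 to 37.1 at 20 weeks. The 3 comparisons share libraries, so their values are given side by side only. The 2-week HSPCs held 545 to 1340 CPM of the X-inactivation RNA Xist and 0 of the Y-linked Ddx3y, while the other HSPCs held 0 to 0.484 and 32.6 to 124. The file headers place the untreated and doxorubicin libraries in 1 directory and each transplantation time in another. Against untreated HSPCs, transplantation, time, sex and directory cannot be told apart at 2 weeks, nor transplantation, time and directory at 20 weeks. Between 2 and 20 weeks, time, sex and directory cannot be told apart, nor the kind of transplant, which is called competitive only at 20 weeks.

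**Figure D3:**
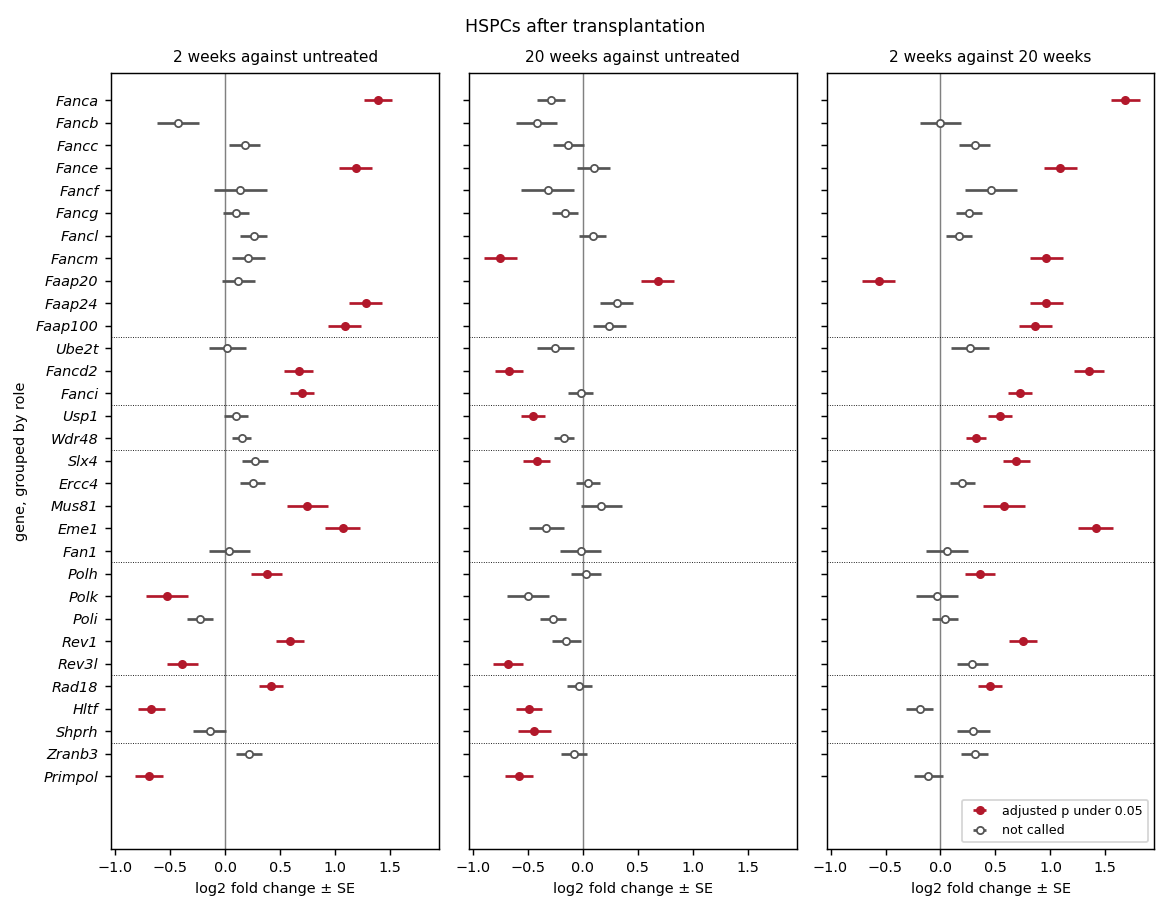
Points are log2 fold changes of the 31 members with SE bars, filled red where the adjusted p was under 0.05, in the 3 comparisons of HSPC conditions with 4 libraries on each side. Fanca stands at 1.39 and 1.68 in the comparisons of 2 weeks, and Fancm at -0.75 at 20 weeks.

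The other pathway genes and the cell cycle lists were read on the same comparisons. At 2 weeks 15 of the 34 other pathway genes were higher than untreated and 3 lower, with Dclre1a at 1.61, Polq, a polymerase of end joining, at 1.25 and Brca1 at 0.81, and with Ube2b at -0.92. At 20 weeks 4 were higher and 9 lower, with Brca2 at -0.64 and Aldh2 at 0.62. Of the 16 S phase genes 15 were higher at 2 weeks and 1 lower, and of the G2 and M phase genes 15 were higher and none lower. The summed S phase level was 2430 to 3006 scaled CPM in untreated, 4709 to 5632 in 2-week and 2792 to 3253 in 20-week HSPCs. The summed level of the 31 members was 1097 to 1259, 1213 to 1378 and 829 to 990. At 2 weeks the S phase sums lay above every untreated library while the members' sums overlapped. At 20 weeks the members' sums lay below every untreated library. The S phase sums then overlapped, as did the G2 and M phase sums, at 2252 to 3228 untreated (mean 2602) and 1812 to 2479 at 20 weeks (mean 2042). Single genes of both lists did not all overlap at 20 weeks. The G2 and M phase gene Bub1 measured 60.8 to 81.8 scaled CPM untreated and 37.6 to 47.9 at 20 weeks. Of the S phase genes, Cdt1 measured 39 to 45 and 49.7 to 64.7, and Ccne2 43.4 to 65.9 and 27.9 to 40.2. The part of these lists in the members' changes was not tested.

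**Figure D4:**
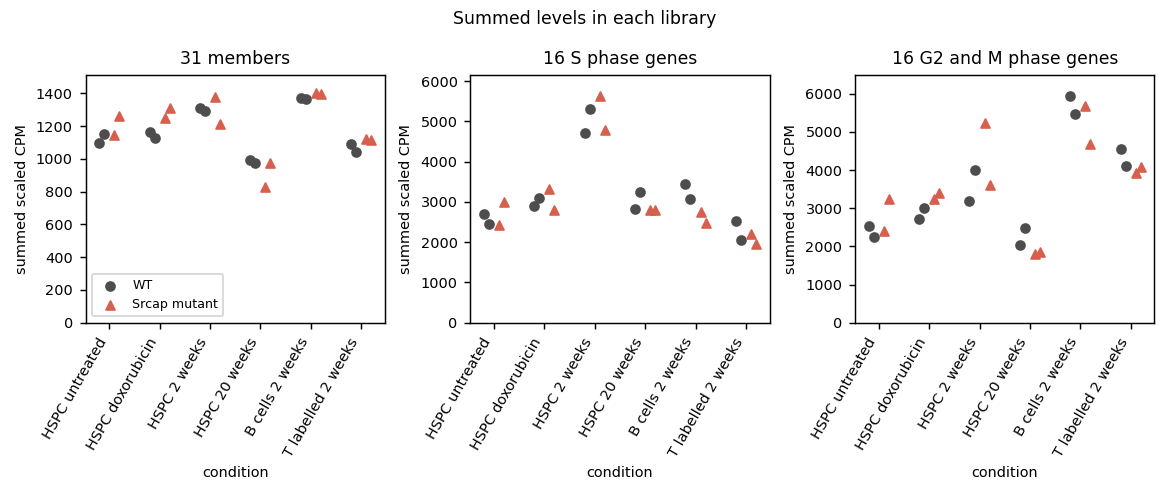
Each point is a library (circles WT, triangles Srcap mutant) and the vertical axis is the summed scaled CPM of the 31 members, 16 S phase genes and 16 G2 and M phase genes in each condition. The 4 HSPC libraries at 2 weeks have S phase sums of 4709 to 5632, above all others, while the member sums of B cells, at 1364 to 1400, overlap those of the 2-week HSPCs, at 1213 to 1378.

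The study's central comparison is Srcap mutant against WT. In none of the 6 cell and condition pairs, nor in the mean over the 4 HSPC conditions, was a member called by edgeR's quasi-likelihood test. Untreated HSPCs gave 0 members at an unadjusted p under 0.05 (4.82% of all genes), doxorubicin 7 (9.79%), 2 weeks 3 (8.76%), 20 weeks 2 (3.8%), the mean over conditions 2 (9.88%), B cells 1 (11%) and T labelled libraries 1 (5.72%). DESeq2 called 0 members in 6 of these 7 and 1 with doxorubicin, where it called 282 of all genes and edgeR called 3. At the adjusted threshold 0% of all genes were called in untreated HSPCs, 0.0154% with doxorubicin, 0.138% at 2 weeks, 0.00512% at 20 weeks, 0.133% in the mean, 0.641% in B cells and 0.0114% in T labelled libraries. With 2 libraries on a side, a p that misses the threshold does not show that levels were alike.

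After doxorubicin the 7 members at an unadjusted p under 0.05 all stood higher in the mutants, where 9.79% of all genes passed that p in either direction. The share of all genes that passed it and stood higher is not reported here. Fanca measured 17.2 and 24.1 scaled CPM in WT and 35.7 and 34.2 in mutants (log2 change 0.75 ± 0.19, adjusted p = 0.168). Eme1 measured 8.96 and 11.9 in WT and 17.1 and 18.2 in mutants (0.75 ± 0.23, adjusted p = 0.274), and Slx4 33.2 and 35.6, and 45.9 and 52.1 (0.50 ± 0.17, adjusted p = 0.347). Ube2t (0.58), Fancm (0.50), Fancc (0.46) and Primpol (0.41) were the others. For these 7 both mutant libraries lay above both WT libraries, which nearly follows from their choice by p in the same libraries. Of the 31 members in all, 14 were separated in this way, while 25.2% of all genes were separated in that direction. Other lists were separated by genotype as well, though none of their genes was called. The stem and progenitor markers summed to 3075 and 2920 scaled CPM in WT and 2285 and 2097 in mutants, the plasma cell markers to 5107 and 4291, and 2839 and 2183, and the megakaryocyte markers to 24.4 and 28.9, and 14.6 and 17.5. The B cell markers summed to 897 and 1160 in WT and 1403 and 1385 in mutants, and the G2 and M phase genes to 2716 and 3011, and 3253 and 3394. Their part in the members' values was not tested. Fanca was the member that DESeq2 called (adjusted p = 0.0178, among 282 genes), and it was also called by edgeR without the count filter (adjusted p = 0.0178, among 474 genes). Over its other alternatives its edgeR adjusted p ran from 0.0634 to 0.84. The excess of its genotype effect over that in untreated HSPCs was 0.57 ± 0.26 (unadjusted p = 0.0442, edgeR adjusted p = 1).

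In untreated HSPCs 28 of the 31 members had a positive log2 change, with a median of 0.10 and a highest value of 0.34 in Polk, while 53.1% of all genes were above 0. The members were measured in the same libraries, so their signs are not independent. Leaving out each library gave 0.12 to 0.61 for Polk and -0.08 to 0.48 for Fancd2. At 20 weeks the 2 members at an unadjusted p under 0.05 (3.8% of all genes), Fancd2 and Fan1, had negative changes. Faap20, with a larger p, was positive, at 0.08 to 0.52 when each library was left out. Fancd2 measured 31.6 and 37.1 scaled CPM in WT and 19.2 and 24.9 in mutants (-0.65 ± 0.19, unadjusted p = 0.00286, edgeR adjusted p = 1). Fan1 measured 14 and 12 in WT and 5.85 and 10.5 in mutants (-0.69 ± 0.27). At 2 weeks Faap20 (-0.53 ± 0.21), Mus81 (-0.65 ± 0.27) and Usp1 (0.33 ± 0.15) were those at an unadjusted p under 0.05. Mus81 measured 26.9 and 20.9 in WT and 10.6 and 18.5 in mutants. Without mutant replicate 2 of that time it was called, at -1.13 (adjusted p = 0.0418), and without mutant replicate 2 at 20 weeks Shprh was called, at -0.97 (adjusted p = 0.00665), each fit then resting on 1 mutant library assumed to vary like the other groups. Without mutant replicate 1 at 20 weeks the change of Shprh was 0.07.

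In B cells Slx4 was 104 and 107 in WT and 125 and 132 in mutants (0.29 ± 0.11, unadjusted p = 0.0184, edgeR adjusted p = 0.329). In T labelled libraries Primpol was 28.2 and 31.8 in WT and 42.3 and 43.6 in mutants (0.47 ± 0.16, unadjusted p = 0.00985, edgeR adjusted p = 0.777). The differences between genotype effects were tested directly for doxorubicin, 2 weeks and 20 weeks against untreated, and for B cells and T labelled libraries against HSPCs, and edgeR called 0 of 31 members in each, with 1, 1, 3, 3 and 1 at an unadjusted p under 0.05 and 0 by DESeq2. That p was passed by 2.82%, 7.34%, 4.66%, 7.21% and 6.47% of all genes. At the adjusted threshold edgeR called 0% of all genes in the first 3 and 0.0158% and 0.0105% in the last 2. The largest difference among the members was in Fan1 between 20 weeks and untreated, at -0.95 ± 0.38.

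**Figure D5:**
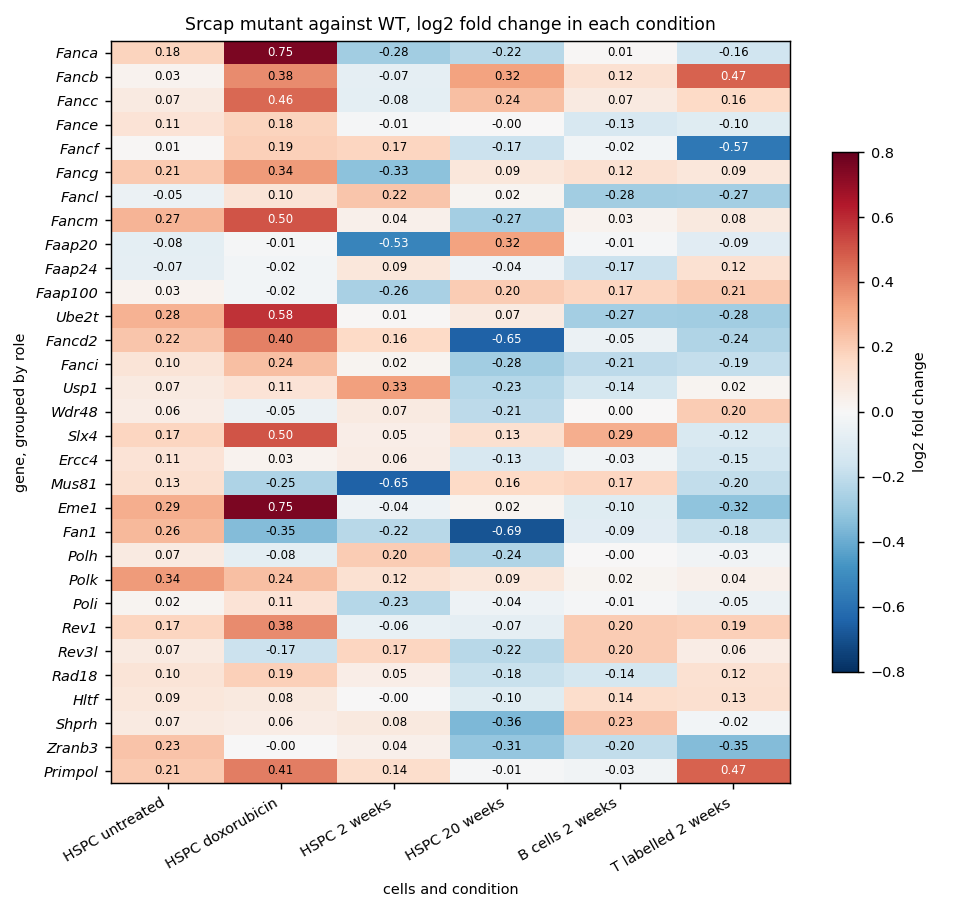
Each cell gives the log2 fold change of a member in Srcap mutant against WT libraries, 2 of each, in the 6 cell and condition pairs. Values run from -0.69 (Fan1 at 20 weeks) to 0.75 (Fanca and Eme1 with doxorubicin), and none had an edgeR adjusted p under 0.05.

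Doxorubicin against untreated HSPCs gave 0 members called by edgeR in WT, in mutants and in their mean, with 1, 0 and 1 at an unadjusted p under 0.05 and 0 by DESeq2 in each, and 0.00512%, 0% and 0.0154% of all genes were called. The unadjusted p was passed by 6.3%, 2.11% and 5.96% of all genes. Zranb3 was the member in WT and in the mean, at 26.5 ± 3.43 scaled CPM untreated and 31.7 ± 1.16 with doxorubicin (log2 change 0.28 ± 0.12, edgeR adjusted p = 0.832 in the mean). The summed level of the members was 1125 to 1309 with doxorubicin, overlapping the untreated 1097 to 1259.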

How the data were processed

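RNA from sorted cells, 30000 HSPCs per the labels' protocol, which is the same text for all 24 libraries, was sequenced as paired stranded reads. The deposited values are raw counts per gene, made by the authors with featureCounts v2.0.1 on exons with reverse-strand counting and GENCODE M28, as recorded per the file headers. FastQC, STAR and Subread, with no version, and the builds mm10 and mm39 stand in the submitters' processing notes, and gene positions in the files match GRCm39. Reads shared between genes on opposite strands are separated by this counting. Symbols came from a GENCODE M21 table, which names 52081 of 55414 genes and 99.85% of counts, and 68 identifiers share a symbol.

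Counts were tested with edgeR 4.0.16 (TMM scaling, robust quasi-likelihood test) in R 4.3.3, with Benjamini-Hochberg adjustment over all genes that passed filterByExpr (minimum count 10, minimum total 15). The 16 HSPC libraries (19522 genes), the 8 B cell and T labelled libraries (17484) and the 12 libraries of 2 weeks (19018) were each fitted as 1 model with a term per group, and 21 comparisons were made. A member was called at an adjusted p under 0.05. The SE of a log2 change was derived from the test, as the absolute change divided by the square root of its F statistic. The members and the other lists were chosen with earlier results of these data known. Genes named in the text are members and, from the other lists, those called with the largest changes whose mean log2 CPM was 1 or more, up to 4 in each direction; promoters are those of up to 6 members called in most comparisons of cell labels. Some of the genes so chosen are not reported here. The letters searched in promoters were chosen later and were not part of the plan.

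Alternatives were DESeq2 1.42.0, RLE scaling, a fit without the count filter, a block for the replicate number, the compared groups alone and leaving out each library. Library totals without a scaling factor, and a block by the number in the headers, were added after seeing the data. The fits were tested on simulated counts in which 200 genes were changed by 2-fold or 4-fold. For mutant against WT with doxorubicin, 24% of 2-fold and 53% of 4-fold changes were called, with 7 false calls. The shares were 47% and 59% for B cells against HSPCs (10 false calls). They were 45% and 64% for mutant against WT in B cells (11 false calls). The 200 genes were drawn at random from all genes that passed the filter, so these shares do not give the recovery at the members' own levels. A member that was not called can still have changed, by an amount that these shares do not set. Total counts of 26369992 to 78432483 per library limit the precision of members with few counts.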

Additional observations from a re-analysis of the deposited data

How the results depend on the processing

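Over the 192 results of single members, 2554 alternatives were computed: 2487 kept the direction and the side of the threshold, 48 lost the call, 7 gained one and 12 changed direction. With library totals and no scaling factor, the log2 changes in T labelled libraries against HSPCs turned to -0.03 for Hltf, -0.21 for Primpol, -0.30 for Wdr48, -0.39 for Fancg, -0.40 for Rev1 and -0.43 for Faap20, and in B cells against T labelled libraries to 0.30 for Wdr48 and 0.42 for Hltf. The same setting called 22 members between 20 weeks and untreated. Among genotype effects near 0, leaving out each library gave -0.06 (without WT replicate 1) to 0.73 for Ube2t in untreated HSPCs, -0.08 (without mutant replicate 2) to 0.48 for Fancd2 there, 0.07 (without mutant replicate 1) to -0.97 for Shprh at 20 weeks, and -0.36 to 0.04 (without WT replicate 1) for Fancd2 in T labelled libraries. With doxorubicin, DESeq2 called 1 member by genotype and edgeR without the count filter called 1, in both cases Fanca. Leaving out each library gave 16 to 18 members called in B cells against HSPCs, 19 to 23 in T labelled libraries against HSPCs, 18 to 23 between B cells and T labelled libraries, 12 to 15 at 2 weeks and 7 to 10 at 20 weeks against untreated, and 14 to 17 between 2 and 20 weeks. It gave 0 to 1 for genotype at 2 weeks (Mus81, -1.13) and at 20 weeks (Shprh, -0.97), for the difference of genotype effects between 20 weeks and untreated (Shprh, -1.04) and for that between B cells and HSPCs (Mus81, 1.35), and 0 in the other comparisons of genotype and doxorubicin. The cause of these changes was not tested, beyond the smaller number of samples where a library was left out. The numbers of all genes called by genotype depended on the tool, with 3 in the edgeR test and 282 with DESeq2 after doxorubicin.

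Samples with the same replicate number in the labels did not deviate together, with correlations of -0.10 to 0.07 between groups, so these numbers were not taken as pairs. The file headers carry other numbers in several groups, such as 3 for replicate 2 of the 2-week WT HSPCs. The correlations therefore cannot show whether libraries of different groups came from the same animals. With the replicate number as a block 9 members were higher and 8 lower in B cells against HSPCs, 6 and 17 in T labelled libraries against HSPCs, 19 and 4 between B cells and T labelled libraries, 11 and 4 at 2 weeks, 1 and 8 at 20 weeks, 14 and 1 between 2 and 20 weeks, and 0 by genotype. With a block by the number in the file headers the counts were 8 and 6, 5 and 13, and 20 and 4 in the comparisons of cell labels (Faap20 in T labelled libraries among those lost, adjusted p = 0.0582), and 1 member, Mus81 at 1.51, was called in the difference of genotype effects between B cells and HSPCs.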
